A study of Mus musculus with 5 samples.

Results

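The enzymes that handle glucose after it enters the cell were examined in brain microvascular fragments of hyperglycemic and normoglycemic mice. The set held 40 genes of glycolysis, pyruvate and lactate handling, the polyol, hexosamine and pentose phosphate branches, the glyoxalase step and glycogen turnover. They were chosen by name from knowledge of these pathways and not by how they changed, although earlier results of these data were known. All 40 were found among the 34615 gene symbols of the files and among the 16286 symbols that were tested. RNA was sequenced from 3 wild-type (WT) and 2 *Ins2-AKITA* mice, with 1 library per mouse. All were C57BL6 males of 26 to 38 weeks, and the WT mice were littermate controls. *Ins2-AKITA* mice were heterozygous for a mutated insulin 2 gene that damages the beta cells of the pancreas and leaves the animals hyperglycemic throughout the body, so that no manipulation was particular to the brain. The fragments had been captured with beads against PECAM1, an endothelial surface protein, and carry endothelial cells together with attached pericytes and astrocyte end-feet. In such bulk samples, fewer cells of a type and less RNA per cell cannot be told apart.

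Glucose that has been phosphorylated by hexokinase is mainly broken down to pyruvate by glycolysis, which in brain ends in lactate or in the mitochondria. Side branches leave at several points: the polyol branch turns glucose into sorbitol and fructose, the pentose phosphate branch yields NADPH and ribose, and the hexosamine branch yields UDP-GlcNAc, the sugar donor for O-GlcNAc on proteins. In diabetic vessels elsewhere in the body these side branches are known as routes of excess glucose. The question asked of the data was which branches differed in transcript level between the genotypes.

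No gene of the set passed the test. The values are FPKM, fragments per kilobase of transcript scaled to the mapped fragments of the library, a level corrected for length, from libraries estimated to hold 1126566 to 2866737 fragments, the most in WT replicate 3. They were compared by limma on log2(FPKM + 1), and 0 of the 40 genes were higher and 0 were lower at a Benjamini-Hochberg adjusted p of 0.05. Among all tested genes 0.0% were called higher and 0.0246% lower, that is 0 and 4 genes. The smallest adjusted p in the set was 0.896. At an unadjusted limma p under 0.05 there were also 0 genes of the set, beside 4.46% of all tested genes. The log2 differences, *Ins2-AKITA* minus WT, ran from -0.67 for *Rpia* to 0.55 for *G6pdx*. Of the 40 genes 27 had a positive and 13 a negative difference, and the median was 0.11. Over all tested genes the median was -0.03 and 46.5% were positive.

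With 3 mice against 2, an exact permutation test cannot give a p below 0.1, so the separation of single values is described instead. In 7 of the 40 genes (17.5%) both *Ins2-AKITA* mice lay above all 3 WT mice, against 9.24% of all tested genes. These were *Gfpt1*, *Gfpt2*, *Uap1*, *Mgea5*, *G6pdx*, *Pfkm* and *Pkm2*. In 0 genes of the set did both lie below all WT mice, against 10.3% of all tested genes. The number above all WT mice changed with the scaling of the libraries. It was 4 after median-ratio scaling (*Gfpt1*, *Gfpt2*, *Uap1* and *G6pdx*, with 9.27% of all genes), 5 when the libraries were set to the same sum over protein-coding genes (with *Pfkm* added, *Pgd* below all WT mice and 7.42% of all genes), and 10 when set to the same sum over all genes (with 33.2% of all genes). It was 7 without WT replicate 1, 10 without WT replicate 2 and 10 without *Ins2-AKITA* replicate 2, where 14.6%, 13.8% and 22.4% of all genes lay above. The number was 14 without WT replicate 3 and 22 without *Ins2-AKITA* replicate 1, where 18.0% and 26.1% of all genes lay above. Leaving out a mouse can only add genes to this count.

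**Figure D1:**
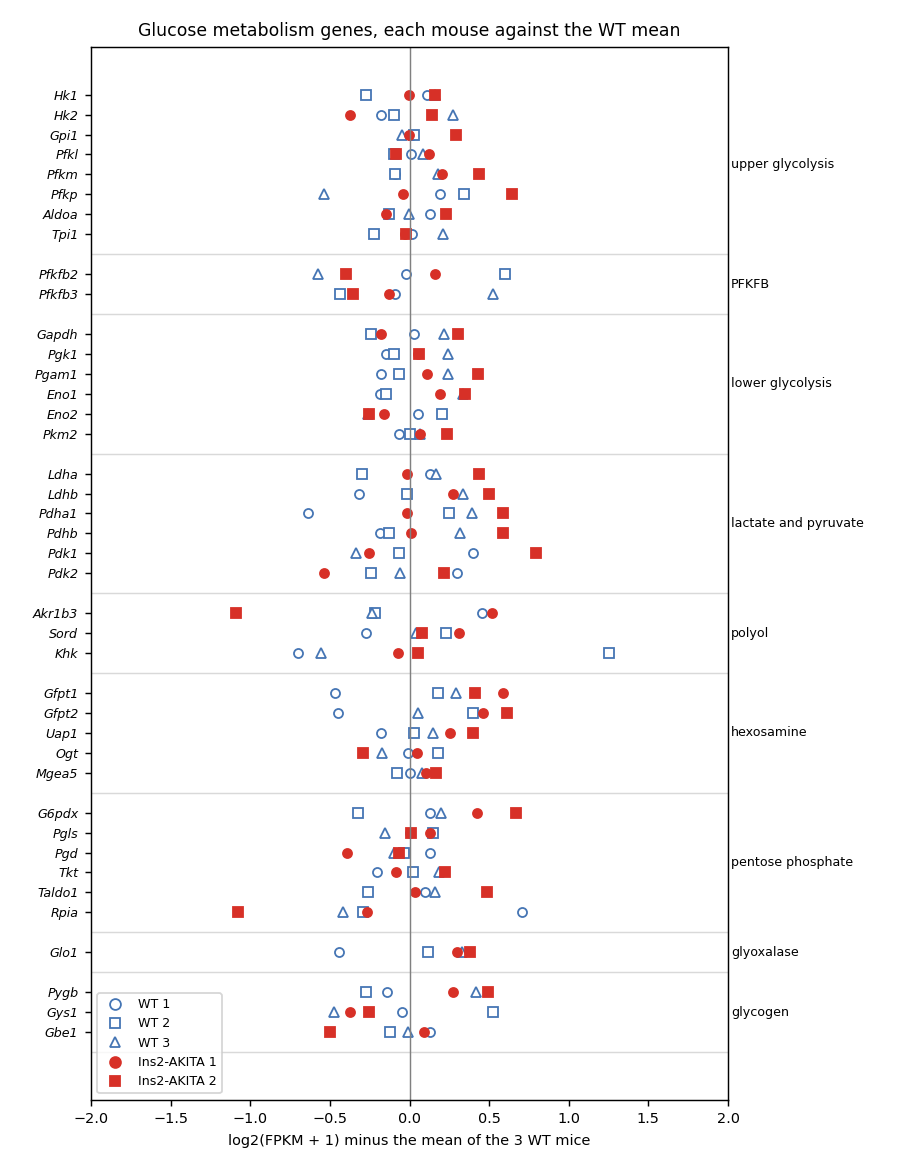
The 40 genes by branch, with log2(FPKM + 1) of each mouse minus the mean of the 3 WT mice on the horizontal axis; open blue symbols are WT mice and filled red symbols are *Ins2-AKITA* mice. Most genes show mixed symbols, and in 7 genes both red symbols lie to the right of all blue ones.

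The hexosamine branch held 4 of these 7 genes out of its 5 members in the set, where 9.24% of all tested genes lay above. The median log2 difference of the 5 members was 0.32. *Mgea5* was not above all WT mice under any of the 3 other scalings, nor was *Uap1* with the same sum over all genes. The biosynthetic genes *Gnpnat1* and *Pgm3*, outside the set, had log2 differences of -0.16 and 0.06 and overlapped between the genotypes. The upstream sequence of the 3 biosynthetic genes within the set is shown. Of the 5 members these were the ones with the larger differences. Each run is the 250 bases before the RefSeq transcription start, as found in NCBIM37, 5′ to 3′ along the strand of the gene. Capitals mark ACGTG, or its reverse complement CACGT, a form of the core of hypoxia-inducible factor sites and part of several other factors' sites. Other forms of this core, such as GCGTG, were not searched for or marked. *Gfpt1* lies on chr6:86992590-86992839 (plus strand), *Gfpt2* on chr11:49607407-49607656 (plus strand) and *Uap1* on chr1:172105096-172105345 (minus strand).
Gfpt1: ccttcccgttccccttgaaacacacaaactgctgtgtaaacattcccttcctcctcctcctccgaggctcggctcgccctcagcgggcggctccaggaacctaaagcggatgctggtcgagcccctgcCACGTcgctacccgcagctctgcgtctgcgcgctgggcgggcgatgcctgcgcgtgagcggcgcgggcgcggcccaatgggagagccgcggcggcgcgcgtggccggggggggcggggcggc
Gfpt2: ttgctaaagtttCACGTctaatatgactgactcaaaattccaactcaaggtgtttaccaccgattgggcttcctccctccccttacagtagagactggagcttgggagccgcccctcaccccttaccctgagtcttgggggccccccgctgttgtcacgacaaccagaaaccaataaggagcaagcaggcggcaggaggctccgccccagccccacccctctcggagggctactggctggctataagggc
Uap1: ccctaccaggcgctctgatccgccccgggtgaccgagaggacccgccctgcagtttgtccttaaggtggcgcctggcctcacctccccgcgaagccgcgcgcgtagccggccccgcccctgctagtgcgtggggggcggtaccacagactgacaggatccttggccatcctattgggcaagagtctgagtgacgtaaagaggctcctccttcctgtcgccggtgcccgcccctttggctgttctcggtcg

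*Gfpt1* held the motif 1 time, 122 bases before the start, *Gfpt2* 1 time, 238 bases before it, and these letters were not in the window of *Uap1*. RefSeq windows were found for 39 of the 40 genes, and *Akr1b3* had none. Read on both strands, ACGTG was in 19 of the 56 windows of the set (33.9%) and in 16.6% of the 32851 windows of all genes. The palindrome CACGTG, which contains ACGTG, was in 10.7% of the windows of the set and 6.02% of all windows. TGACGTGG, which also contains ACGTG, was in 1.79% and 0.563%. Several windows can belong to 1 gene and overlap, so they are not independent of each other, and a match of letters is a description and not a binding site.

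*Gfpt1* and *Gfpt2* encode glutamine-fructose-6-phosphate transaminases, which catalyse the entry step of the hexosamine branch. *Gfpt1* (chr6:86992840-87042191) measured 11.8, 19.1 and 20.8 FPKM in WT replicates 1 to 3 and 25.7 and 22.6 FPKM in *Ins2-AKITA* replicates 1 and 2. Both *Ins2-AKITA* mice were above all WT mice, and WT replicate 1 stood lowest. The mean was 17.2 ± 4.75 FPKM (SD, n = 3) in WT and 24.2 ± 2.2 FPKM (SD, n = 2) in *Ins2-AKITA* mice, a log2 difference of 0.50 (SE 0.29, limma adjusted p = 0.896). *Gfpt2* (chr11:49607680-49652115) measured 1.26, 3.07 and 2.205 FPKM in WT mice, against 3.26 and 3.72 FPKM in *Ins2-AKITA* mice. The groups did not overlap, at a log2 difference of 0.54 (SE 0.42, limma adjusted p = 0.901), but the gene was close to the detection limit. From the depth estimated for these libraries its values rested on about 4, 11 and 17 fragments in WT mice, against 10 and 13 in *Ins2-AKITA* mice. Exact 95% Poisson intervals, which cover counting error only, ran from 0.343 to 3.22 FPKM in WT replicate 1 and from 1.56 to 5.99 FPKM in *Ins2-AKITA* replicate 1, so single libraries could not be separated for *Gfpt2* at this depth. *Gfpt1* made up 85.9% to 90.4% of the summed FPKM of the pair.

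*Uap1* encodes the pyrophosphorylase that forms UDP-GlcNAc at the end of the branch. It measured 14.2, 16.4 and 18.0 FPKM in WT mice, against 19.4 and 21.6 FPKM in *Ins2-AKITA* mice. The groups did not overlap, and the log2 difference was 0.32 (SE 0.21, limma adjusted p = 0.896). *Mgea5* encodes O-GlcNAcase, which removes O-GlcNAc from proteins, and measured 36.4, 34.4 and 38.5 FPKM in WT mice, against 39.2 and 41.0 FPKM in *Ins2-AKITA* mice. Here too the groups did not overlap, but the distance was small, with a log2 difference of 0.14 (SE 0.18, limma adjusted p = 0.918). Counting error alone spanned 34.1 to 44.8 FPKM in *Ins2-AKITA* replicate 1 (exact 95% Poisson interval) and reached 41.9 FPKM in WT replicate 3. *Ogt*, the transferase that attaches O-GlcNAc, measured 31.3, 35.8 and 27.8 FPKM in WT mice, against 32.6 and 25.6 FPKM in *Ins2-AKITA* mice. These values overlapped, with a log2 difference of -0.12 (SE 0.22, limma adjusted p = 0.941). The log2 ratio of *Ogt* to *Mgea5* within a mouse differed by -0.26 between the genotypes, with overlapping values (two-sided exact permutation p = 0.4).

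**Figure D2:**
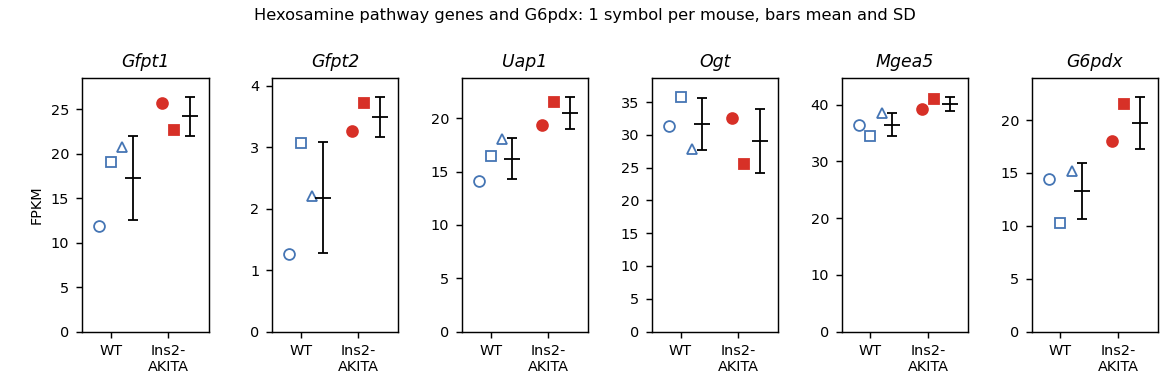
FPKM per mouse (vertical axes from 0, each gene on its own scale) for the 5 hexosamine genes and *G6pdx*, with open blue symbols for 3 WT mice, filled red symbols for 2 *Ins2-AKITA* mice, and bars for mean and SD. Red symbols lie above all blue ones in every panel but that of *Ogt*.

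Of the hexosamine genes, 4 did not overlap with any single mouse left out, where no gene can be lost and 13.8% to 26.1% of all tested genes lay above. Under the other scalings 3 did not overlap, with 9.27% of all genes above after median-ratio scaling, 7.42% with the protein-coding sum and 33.2% with the sum over all genes. *Gfpt1* and *Gfpt2* were among these 3 under every scaling, *Uap1* under median-ratio scaling and the protein-coding sum, and *Ogt* under the sum over all genes. The markers of other cells in the fragments also differed between the mice. The summed FPKM of 7 astrocyte markers was 1580, 2045 and 2334 in WT mice, against 2728 and 3146 in *Ins2-AKITA* mice. Most of each sum was *Slc1a2*, at 1013, 1449 and 1507 FPKM in WT mice, against 1897 and 2110 FPKM in *Ins2-AKITA* mice. A positive log2 difference was found in 7 of 7 astrocyte markers (median 0.52). In 3 of the 7 both *Ins2-AKITA* mice lay above all WT mice, against 9.24% of all tested genes, and the others overlapped. The summed FPKM of 4 smooth muscle markers was 212, 249 and 227 in WT mice, against 166 and 129 in *Ins2-AKITA* mice. Here 4 of 4 were lower in both *Ins2-AKITA* mice than in all WT mice, against 10.3% of all tested genes. Among them *Cnn1* was low, at 3.20, 1.06 and 2.46 FPKM in WT mice, against 0.828 and 0.363 FPKM in *Ins2-AKITA* mice. Of 8 endothelial markers 7 had a negative difference (median -0.39), and the sum of all 8 ran from 442 to 776 in WT and from 379 to 462 in *Ins2-AKITA* mice. In 3 of the 8 both *Ins2-AKITA* mice lay below all WT mice, against 10.3% of all tested genes. These were *Pecam1*, *Cdh5* and *Ly6c1*, and the others overlapped. *Pecam1*, the captured antigen, was at 65.8 to 92.8 FPKM in WT and 58.3 to 63.1 FPKM in *Ins2-AKITA* mice. RNA of cells outside the vessel wall was present in all libraries, with sums of 1598 to 2110 FPKM over 8 neuronal and 1926 to 2613 FPKM over 6 oligodendrocyte markers. The sums were 171 to 246 FPKM for 7 pericyte, 73.1 to 123 FPKM for 7 microglial and 19.8 to 51.8 FPKM for 3 red cell genes. No marker of these lists was at 0 in any mouse. Whether the cell composition had a part in the values of the hexosamine genes was not tested.

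*G6pdx*, which encodes glucose-6-phosphate dehydrogenase, the entry enzyme of the pentose phosphate branch, had the smallest unadjusted limma p of the set. It measured 14.5, 10.3 and 15.2 FPKM in WT mice, against 18.0 and 21.5 FPKM in *Ins2-AKITA* mice. Both *Ins2-AKITA* mice were above all WT mice under the deposited and the 3 other scalings. The mean was 13.3 ± 2.64 FPKM (SD, n = 3) in WT and 19.7 ± 2.47 FPKM (SD, n = 2) in *Ins2-AKITA* mice, a ratio of 1.48 and a log2 difference of 0.55 (SE 0.25, limma adjusted p = 0.896). The other enzymes of the branch did not follow this order. *Pgd*, the second NADPH-forming enzyme, measured 10.4, 9.24 and 8.81 FPKM in WT mice, against 6.97 and 8.99 FPKM in *Ins2-AKITA* mice, with a log2 difference of -0.23 (SE 0.25, limma adjusted p = 0.902). *Pgls*, the lactonase between them, spanned 12.9 to 16.2 FPKM in all mice, at a log2 difference of 0.07.

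In the part of the branch that interconverts sugars, *Tkt*, encoding transketolase, measured 26.0, 30.6 and 34.5 FPKM in WT mice, against 28.4 and 35.4 FPKM in *Ins2-AKITA* mice. The groups overlapped almost fully, at a log2 difference of 0.07 (SE 0.22, limma adjusted p = 0.967). *Taldo1*, encoding transaldolase, ran from 30.1 to 51.3 FPKM, with its highest value in *Ins2-AKITA* replicate 2 and a log2 difference of 0.26. *Rpia*, encoding ribose-5-phosphate isomerase, measured 10.7, 4.85 and 4.37 FPKM in WT mice, against 4.94 and 2.40 FPKM in *Ins2-AKITA* mice. This was the most negative log2 difference of the set, -0.67 (SE 0.47, limma adjusted p = 0.897), and it was carried by WT replicate 1 on the high side and *Ins2-AKITA* replicate 2 on the low side. The other 3 mice lay within 4.37 to 4.94 FPKM. Leaving out single mice moved the *Rpia* difference between -1.08 and -0.27.

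The polyol branch had no shared direction. *Akr1b3* encodes aldose reductase, which reduces glucose to sorbitol, and measured 30.8, 19.0 and 18.7 FPKM in WT mice, against 32.2 and 9.91 FPKM in *Ins2-AKITA* mice. The 2 *Ins2-AKITA* mice were the highest and the lowest of the 5 animals, 3.25 times apart, and the log2 difference of -0.29 (SE 0.50, limma adjusted p = 0.941) turned to 0.52 without *Ins2-AKITA* replicate 2 and was -1.09 without replicate 1. For *Akr1b3*, 5 pseudogenes of at least 90% identity were in the files, summing to between 0 and 4.77 FPKM per mouse. *Sord*, encoding sorbitol dehydrogenase, measured 5.24, 7.83 and 6.77 FPKM in WT mice, against 8.34 and 6.95 FPKM in *Ins2-AKITA* mice. The values overlapped, with a log2 difference of 0.19 (SE 0.29, limma adjusted p = 0.927), and rested on about 13 to 41 fragments. *Khk*, encoding ketohexokinase, the first enzyme of fructose breakdown, measured 5.10, 22.6 and 5.75 FPKM in WT mice, against 8.42 and 9.28 FPKM in *Ins2-AKITA* mice. WT replicate 2 was the highest of the 5 mice, 4.43 times the lowest, and the log2 difference of -0.01 (SE 0.61, limma adjusted p = 0.998) became 0.62 without it. The plain FPKM ratio of *Sord* to *Akr1b3* was 0.170, 0.413 and 0.362 in WT mice, against 0.259 and 0.702 in *Ins2-AKITA* mice. These values overlapped too. For the log2 ratio with 1 added to each FPKM, the exact permutation p was 0.6.

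Glycolysis itself provided the most abundant transcripts of the set. In WT mice the order by mean FPKM was *Gapdh* (308 ± 48.5, SD, n = 3), *Aldoa* (299 ± 26.8), *Gpi1* (217 ± 5.99), *Eno1* (180 ± 38.2), *Pkm2* (175 ± 7.86), *Ldhb* (164 ± 37.5) and *Eno2* (132 ± 21.2). *Gapdh* and *Aldoa* overlapped in range, as did *Gpi1* with *Eno1* and *Eno1* with *Pkm2* and *Ldhb* and *Ldhb* with *Eno2*, so their order is not fixed beyond the spread of the mice. At the other end were *Gfpt2* and *Hk2*, at 2.18 ± 0.906 and 1.66 ± 0.457 FPKM (SD, n = 3).

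*Hk1*, the hexokinase typical of brain, measured 92.4, 70.4 and 95.6 FPKM in WT mice, against 85.3 and 95.6 FPKM in *Ins2-AKITA* mice. The groups overlapped, with a log2 difference of 0.08 (SE 0.21, limma adjusted p = 0.962). *Hk2*, the insulin-responsive hexokinase of muscle and fat, measured 1.33, 1.46 and 2.18 FPKM in WT mice, against 1.03 and 1.90 FPKM in *Ins2-AKITA* mice. Its values overlapped as well (log2 difference -0.12, SE 0.47, limma adjusted p = 0.976) and rested on at most 33.0 fragments per library. *Hk1* made up 88.4% to 96.2% of the summed FPKM of the 5 hexokinase genes in each mouse and *Hk2* 1.13% to 2.15%. *Gpi1*, the isomerase that forms fructose 6-phosphate, was almost the same in the WT mice, 210 to 221 FPKM, and was 216 and 265 FPKM in *Ins2-AKITA* mice.

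Phosphofructokinase, the main control point of glycolysis, is encoded by *Pfkm*, *Pfkp* and *Pfkl*. *Pfkm* measured 80.7, 80.5 and 97.3 FPKM in WT mice, against 98.9 and 116 FPKM in *Ins2-AKITA* mice. The groups did not overlap, although *Ins2-AKITA* replicate 1 was only just above WT replicate 3, and the log2 difference was 0.32 (SE 0.19, limma adjusted p = 0.896). *Pfkp* measured 68.8, 76.4 and 41.0 FPKM in WT mice, against 58.4 and 94.4 FPKM in *Ins2-AKITA* mice. It varied more among the WT mice than its sister genes did, and its log2 difference of 0.30 was smaller than its error (SE 0.34, limma adjusted p = 0.902). *Pfkl* measured 27.8, 25.8 and 29.4 FPKM in WT mice, against 30.2 and 25.9 FPKM in *Ins2-AKITA* mice, with a log2 difference of 0.02 (SE 0.19, limma adjusted p = 0.993). Of the summed FPKM, *Pfkm* held 44.1% to 58.0%, *Pfkp* 24.4% to 41.8% and *Pfkl* 10.96% to 17.5%.

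*Pfkfb3* and *Pfkfb2* make and degrade fructose 2,6-bisphosphate, the activator of phosphofructokinase. *Pfkfb3* measured 19.6, 15.2 and 30.6 FPKM in WT mice, against 19.0 and 16.1 FPKM in *Ins2-AKITA* mice. The WT range enclosed both *Ins2-AKITA* values, at a log2 difference of -0.24 (SE 0.32, limma adjusted p = 0.918). *Pfkfb2* ran from 4.86 to 12.2 FPKM in WT and was 8.77 and 5.62 FPKM in *Ins2-AKITA* mice. In the remaining upper steps, the log2 difference was 0.04 for *Aldoa* (aldolase A) and -0.03 for *Tpi1* (triosephosphate isomerase), and both overlapped between the genotypes.

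*Gapdh*, often used as a reference gene, measured 312, 258 and 355 FPKM in WT mice, against 270 and 377 FPKM in *Ins2-AKITA* mice. The genotypes overlapped, with a log2 difference of 0.06 (SE 0.24, limma adjusted p = 0.976). The 60 *Gapdh* pseudogenes of at least 90% identity summed to 11.1% to 33.7% of the *Gapdh* value, depending on the mouse, so the level of this gene is uncertain to the extent that reads shared with them were split. Pseudogenes reached 11.6% to 38.0% of the *Ldha* and 10.7% to 28.0% of the *Pgam1* value. *Pkm2*, the pyruvate kinase gene of brain and most other tissues, measured 167, 175 and 183 FPKM in WT mice, against 183 and 206 FPKM in *Ins2-AKITA* mice. *Ins2-AKITA* replicate 1 exceeded WT replicate 3 by less than 1 FPKM, and the log2 difference was 0.15 (SE 0.17, limma adjusted p = 0.904). *Eno2*, the enolase of neurons, measured 136, 151 and 109 FPKM in WT mice, against 117 and 109 FPKM in *Ins2-AKITA* mice. Its log2 difference was -0.21 (SE 0.20, limma adjusted p = 0.902). *Eno1*, *Pgam1* and *Pgk1*, which encode the broadly expressed enolase, phosphoglycerate mutase and phosphoglycerate kinase, had log2 differences of 0.27, 0.27 and 0.06, and their genotypes overlapped.

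**Figure D3:**
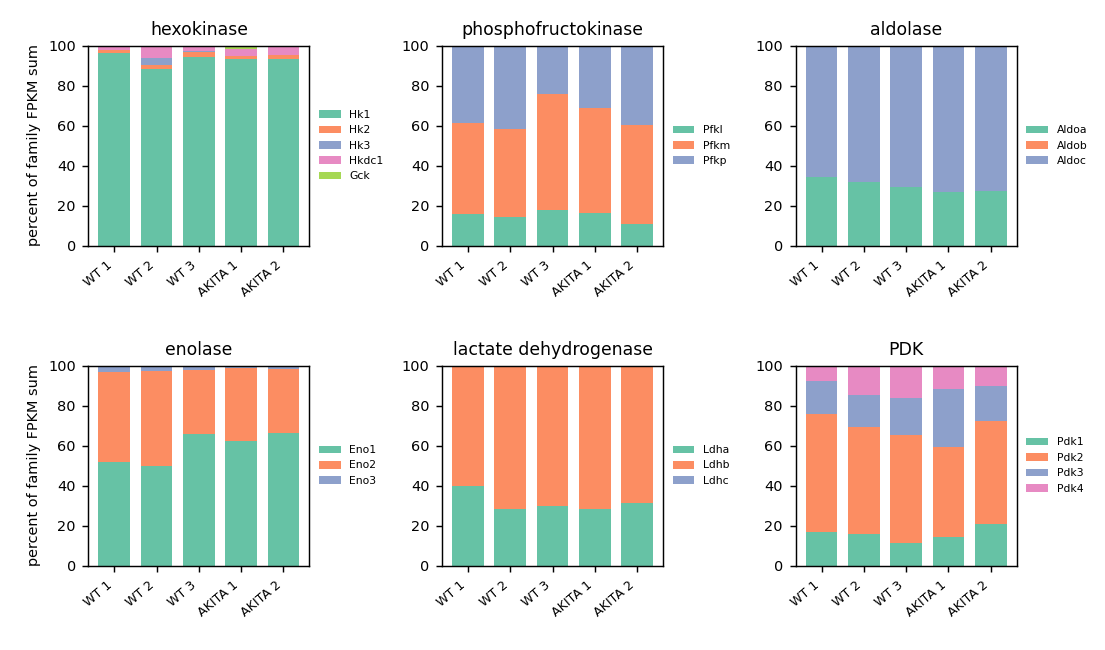
Share of each isozyme gene in the summed FPKM of its family (vertical axis, percent) for each of the 5 mice, with WT mice on the left and *Ins2-AKITA* mice (AKITA) on the right of each panel. *Hk1*, *Pfkm*, *Aldoc*, *Eno1*, *Ldhb* and *Pdk2* held the highest share of their families in every mouse.

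At the end of glycolysis, *Ldhb*, the lactate dehydrogenase subunit of oxidative tissues, measured 129, 159 and 203 FPKM in WT mice, against 195 and 228 FPKM in *Ins2-AKITA* mice. WT replicate 3 lay between the 2 *Ins2-AKITA* values, and the log2 difference was 0.39 (SE 0.24, limma adjusted p = 0.896). *Ldha*, the subunit of glycolytic tissues, measured 84.5, 62.6 and 86.6 FPKM in WT mice, against 76.1 and 105 FPKM in *Ins2-AKITA* mice, with a log2 difference of 0.21 (SE 0.24, limma adjusted p = 0.904). *Ldhb* made up 60.4% to 71.9% of the family, and the testis gene *Ldhc* was listed at 0. *Pdha1* and *Pdhb*, the subunits of the pyruvate dehydrogenase E1 enzyme, had log2 differences of 0.29 and 0.30. *Pdha1* was lowest in WT replicate 1 (29.7 FPKM) and highest in *Ins2-AKITA* replicate 2 (70.9 FPKM), and *Pdhb* ran from 11.6 to 20.4 FPKM on about 17 to 60 fragments.

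The kinases that switch pyruvate dehydrogenase off had log2 differences of opposite sign. *Pdk1* measured 14.8, 10.4 and 8.48 FPKM in WT mice, against 9.02 and 19.8 FPKM in *Ins2-AKITA* mice, with a log2 difference of 0.27 (SE 0.39, limma adjusted p = 0.926). *Pdk2* measured 51.8, 35.3 and 40.1 FPKM in WT mice, against 28.5 and 48.9 FPKM in *Ins2-AKITA* mice, with a log2 difference of -0.16 (SE 0.29, limma adjusted p = 0.945). For both genes the *Ins2-AKITA* mice were far apart, replicate 2 being higher. Within the family *Pdk2* held 59.1%, 53.5% and 53.9% of the summed FPKM in WT mice, against 45.1% and 51.4% in *Ins2-AKITA* mice, so that both *Ins2-AKITA* shares were below all WT shares.

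Glycogen and glyoxalase genes completed the set. *Pygb*, the glycogen phosphorylase of brain, measured 68.3, 62.4 and 101 FPKM in WT mice, against 91.4 and 107 FPKM in *Ins2-AKITA* mice. WT replicate 3 lay within the *Ins2-AKITA* range, at a log2 difference of 0.38 (SE 0.25, limma adjusted p = 0.896). *Gys1*, glycogen synthase, measured 14.0, 21.3 and 10.2 FPKM in WT mice, against 10.99 and 11.99 FPKM in *Ins2-AKITA* mice. Both *Ins2-AKITA* values were inside the WT range, at a log2 difference of -0.31 (SE 0.33, limma adjusted p = 0.902). *Gbe1*, the branching enzyme, measured 7.92, 6.48 and 7.08 FPKM in WT mice, against 7.66 and 4.75 FPKM in *Ins2-AKITA* mice, at a log2 difference of -0.21 (SE 0.30, limma adjusted p = 0.927). *Glo1*, the glyoxalase that clears methylglyoxal formed as a by-product of glycolysis, measured 25.1, 37.4 and 43.5 FPKM in WT mice, against 42.7 and 45.1 FPKM in *Ins2-AKITA* mice. WT replicate 1 stood lowest, the other 4 mice lay within 37.4 to 45.1 FPKM, and the log2 difference was 0.34 (SE 0.27, limma adjusted p = 0.901).

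A ratio of 2 genes within a mouse does not depend on how that library was scaled, apart from the added 1. Of 16 such log2 ratios, 1 was higher in both *Ins2-AKITA* mice than in all WT mice and 1 was lower. *G6pdx* relative to *Gpi1*, the enzymes that draw glucose 6-phosphate into the pentose phosphate branch and into glycolysis, was -3.83, -4.30 and -3.70 in WT mice, against -3.52 and -3.57 in *Ins2-AKITA* mice on the log2 scale. The difference was 0.40, with a two-sided exact permutation p of 0.2. *Pdk2* relative to *Pdk1* was 1.74, 1.67 and 2.12 in WT mice, against 1.56 and 1.27 in *Ins2-AKITA* mice, a difference of -0.43 (two-sided exact permutation p = 0.2). *Gfpt1* relative to *Gpi1* overlapped between the genotypes (difference 0.36, exact permutation p = 0.6). After Benjamini-Hochberg adjustment over the 16 ratios the smallest exact permutation p was 0.933.

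**Figure D4:**
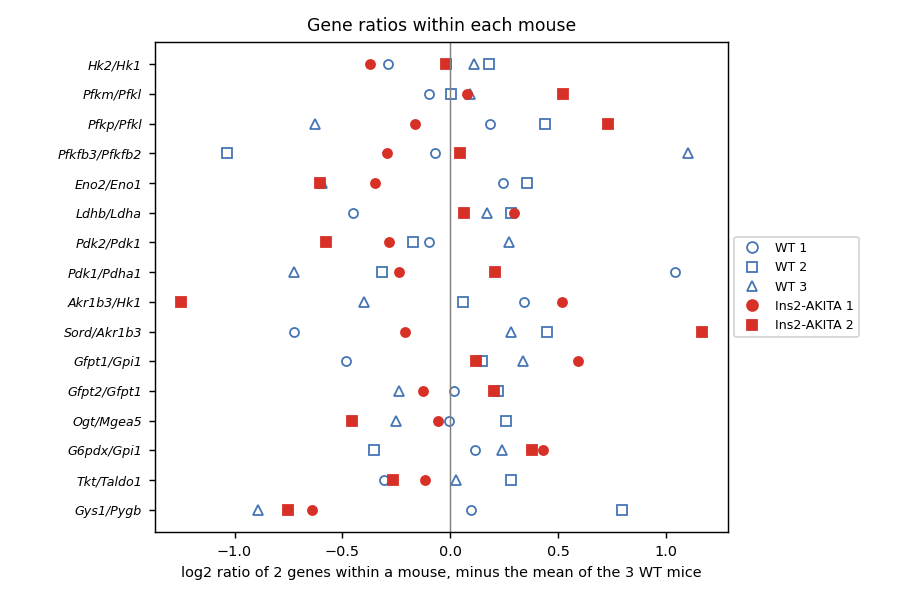
Log2 ratios of 2 genes within each mouse, minus the mean of the 3 WT mice (horizontal axis), with open blue symbols for WT and filled red symbols for *Ins2-AKITA* mice. The red symbols are to the right of all blue ones for *G6pdx*/*Gpi1* and to the left for *Pdk2*/*Pdk1*, and mixed with them for the other 14 ratios.

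The branches were then set side by side by the median log2 difference of their genes. It was 0.34 for the single glyoxalase gene, 0.32 for the hexosamine, 0.28 for the lactate and pyruvate, 0.11 for the lower glycolysis, 0.07 for the pentose phosphate, 0.06 for the upper glycolysis and -0.01 for the polyol genes, and -0.18 for *Pfkfb2* with *Pfkfb3* and -0.21 for the glycogen genes. The polyol median was 0.01 after median-ratio scaling. Setting the libraries to the same sum over all genes moved the median of all tested genes to 1.25 and the branch medians to between 1.03 for glycogen and 1.80 for glyoxalase. Medians per mouse, taken relative to the WT means, showed how far these depend on single animals. For the hexosamine genes they were -0.18, 0.18 and 0.08 in WT mice, against 0.25 and 0.40 in *Ins2-AKITA* mice, and the genotypes did not overlap. These medians restate the gene values given above and have no share over all genes beside them. For lactate and pyruvate they were -0.03, -0.10 and 0.24 in WT mice, against -0.02 and 0.54 in *Ins2-AKITA* mice, and without *Ins2-AKITA* replicate 2 the branch median was -0.02. This mouse had the highest value of all 5 in 21 of the 40 genes and exceeded replicate 1 in 29 of them. It was above all WT mice in 22 genes, against 26.1% of all tested genes, and replicate 1 in 10, against 22.4%, so that the count for replicate 1 was near the background. Each of them was below all WT mice in 4 genes, against 27.9% of all tested genes for replicate 2 and 22.5% for replicate 1. The summed FPKM of its 8 neuronal markers was also the highest, at 2110 against 1598 to 1714 in the other mice. Most of this sum was *Camk2a* (1220 FPKM), and 5 of the 8 markers were highest in this mouse, while *Syt1*, *Rbfox3* and *Gad1* were not.

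**Figure D5:**
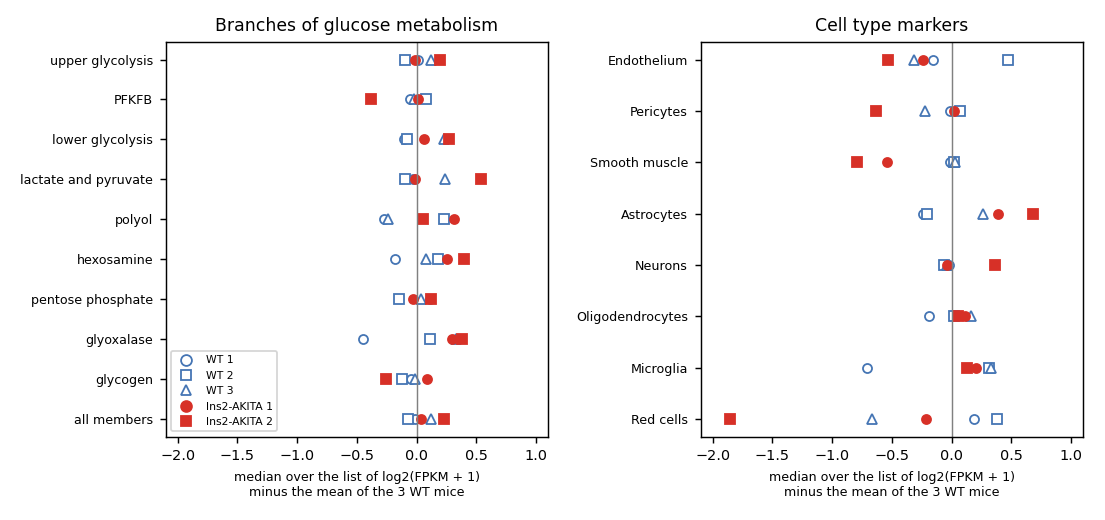
Median over the genes of each branch (left) and of each list of cell type markers (right) of log2(FPKM + 1) minus the mean of the 3 WT mice, per mouse, with open blue symbols for WT and filled red symbols for *Ins2-AKITA* mice. Both red symbols lie to the right of all blue ones for the hexosamine branch and the astrocyte markers, and to the left for the smooth muscle markers.

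The 61 further genes of these pathways included 45 that were tested. Of these 0 were called in either direction by limma, 2 had an unadjusted p under 0.05 (4.46% of all tested genes did), 26 were higher and 19 lower, and the median log2 difference was 0.06. Both *Ins2-AKITA* mice were above all WT mice in 4 of them, where 9.24% of all tested genes were, and below in 7, where 10.3% were. *Aldoc*, the aldolase of astrocytes, was the most abundant gene of these pathways, with 625, 585 and 729 FPKM in WT mice, against 729 and 944 FPKM in *Ins2-AKITA* mice. *Ins2-AKITA* replicate 1 and WT replicate 3 were nearly equal, and the log2 difference was 0.37 (SE 0.24, limma adjusted p = 0.896). Its share of the aldolase family was 65.6%, 68.1% and 70.9% in WT mice, against 73.0% and 72.8% in *Ins2-AKITA* mice, and did not overlap. The summed astrocyte markers given above had the same order of genotypes. Of the 7 single markers 3 had it, against 9.24% of all tested genes, and the others overlapped. The part of astrocyte RNA in the *Aldoc* values was not tested. *Gpd2*, the mitochondrial enzyme of the glycerol phosphate shuttle, measured 14.9, 27.0 and 35.5 FPKM in WT mice, against 40.7 and 48.1 FPKM in *Ins2-AKITA* mice, at a log2 difference of 0.84 (SE 0.37, limma adjusted p = 0.896). The other genes above were *Pdk3* (log2 difference 0.44) and *Dld* (0.24), a further pyruvate dehydrogenase kinase and the E3 subunit of that complex.

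*Pgp*, which encodes a phosphatase of toxic by-products of glycolysis, measured 33.1, 31.1 and 37.7 FPKM in WT mice, against 23.2 and 21.4 FPKM in *Ins2-AKITA* mice. The groups did not overlap, at a log2 difference of -0.58 (SE 0.19, limma adjusted p = 0.896). *Aldh2*, which oxidises aldehydes, measured 69.4, 58.9 and 49.7 FPKM in WT mice, against 41.5 and 43.4 FPKM in *Ins2-AKITA* mice. *Amdhd2*, which returns N-acetylglucosamine 6-phosphate towards glycolysis, measured 20.1, 11.3 and 10.6 FPKM in WT mice, against 8.53 and 8.08 FPKM in *Ins2-AKITA* mice. The muscle isozymes *Eno3* and *Pgam2* and the glycerol phosphate dehydrogenase *Gpd1l* were also below all WT mice, with log2 differences of -0.57, -1.17 and -0.33. *Pgam2* was close to the detection limit, at 2.79, 2.46 and 2.29 FPKM in WT mice, against 1.44 and 0 FPKM in *Ins2-AKITA* mice. *Gaa*, the lysosomal glucosidase of glycogen and the next most abundant of these genes, overlapped between the genotypes (log2 difference 0.06).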

How the data were processed

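Total RNA of microvascular fragments was depleted of ribosomal RNA and made into stranded libraries, 1 per mouse. The authors mapped the reads to NCBIM37 with TopHat2 2.0.4, removed duplicated reads with Picard 1.92, ran Cufflinks 2.2.1 and deposited 1 FPKM value per Ensembl gene and mouse. The program behind the single-mouse values and the Ensembl release are not given in the sources used here. Removal of duplicates can lower abundant short genes.

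Of 37982 identifiers 37197 were matched to GENCODE vM1 and 785 kept their identifier. Values were summed to 34615 symbols, and the 16286 with a mean FPKM of at least 1 went into 1 two-sided fit of genotype on log2(FPKM + 1) by limma 3.58.1 under R 4.3.3, using lmFit and a trended eBayes prior, with p-values adjusted after Benjamini and Hochberg and a threshold of 0.05. Differences on this scale understate those of low genes. In simulated data the fit was tested only for a known difference larger than any in the set. This does not show its power for smaller differences. Exact permutation tests used all 10 splits of the 5 mice, in Python 3.11.15. Limma p-values rest on the spread between these mice, drawn by the prior towards that of genes of similar level. Exact permutation p-values rest on the values of these mice alone. Depth was estimated from the steps between low FPKM values (97.7% to 98.0% whole within 0.05 of a fragment). Pseudogenes were matched by BLAST+ 2.17.0 over at least 300 bases. Promoter windows were RefSeq sequences of 250 bases taken from GRCm38. Only those of *Gfpt1*, *Gfpt2* and *Uap1* were looked for, and found again, in NCBIM37.

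Genes were named in full if they encode an entry step or isozyme, if the genotypes did not overlap, or if they had 1 of the 3 smallest p per direction. Of the further pathway genes, those without overlap, the 3 most abundant, *Gnpnat1* and *Pgm3* were named. The members and lists were chosen with earlier results of these data known. As alternatives, the pseudocount was set to 0.1, the filter was dropped or raised to 5, and 3 other scalings, a constant prior variance, a replicate block, the highest identifier per symbol and the omission of each mouse in turn were tried. A fit that leaves 1 *Ins2-AKITA* mouse assumes that it varies like the WT mice. The values of 1 further pathway gene are not reported here.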

Additional observations from a re-analysis of the deposited data

How the results depend on the processing

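Under all alternatives 0 of the 40 genes passed the adjusted threshold in either direction by limma; with the same sum over all genes 38 of them were fitted, since *Hk2* and *Gfpt2* fell under the filter. At an unadjusted p under 0.05 there were 3 with the same sum over all genes (*Pdk1*, *Gfpt1* and *G6pdx*, beside 10.6% of all genes), 1 with the replicate block (*Ldhb*, beside 7.67%), 2 without WT replicate 3 (*Ldhb* and *Pygb*, beside 8.61%) and 0 under the others. Over all genes, 28 were called higher and 30 lower with the same sum over all genes, 1 and 2 with a constant prior variance, and 2 were called lower with no filter and 2 with a filter at 5. Leaving out single mice gave 0 to 10 higher and 1 to 6 lower. Setting the libraries to the same sum over all genes, where the deposited sums ran from 1531575 to 13025905 FPKM, moved the median of the 40 genes to 1.61 and those of the branches to 1.75 (upper glycolysis), 1.04 (*Pfkfb2* and *Pfkfb3*), 1.80 (lower glycolysis), 1.66 (lactate and pyruvate), 1.12 (polyol), 1.62 (hexosamine), 1.44 (pentose phosphate), 1.80 (glyoxalase) and 1.03 (glycogen), while the median of all genes was 1.25. The deposited sums over protein-coding genes alone ran from 388605 to 421601 FPKM. With single mice left out the median of the 40 genes was 0.040 to 0.23, and those of the branches, in the same order, were -0.026 to 0.20, -0.38 to 0.015, 0.062 to 0.27, -0.017 to 0.54, -0.29 to 0.31, 0.24 to 0.40, -0.025 to 0.12, 0.12 to 0.50 and -0.26 to 0.090.

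Of the 40 genes 15 kept the sign of their log2 difference under every alternative in which they were fitted, *Gfpt1*, *Gfpt2*, *Uap1*, *Mgea5*, *G6pdx*, *Pfkm* and *Pkm2* among them, and 9 changed it only with a mouse left out. With the same sum over all genes, an alternative added for single genes after the data had been seen, all 38 fitted genes were positive, and 12 changed sign: *Tpi1* to 1.58, *Pfkfb2* to 0.98, *Pfkfb3* to 1.1, *Eno2* to 1.47, *Pdk2* to 1.40, *Akr1b3* to 1.12, *Khk* to 1.1, *Ogt* to 1.37, *Pgd* to 0.96, *Rpia* to 0.42, *Gys1* to 1.03 and *Gbe1* to 0.83. Against the median of all genes, 29 genes of the set lay above it with this scaling and 29 as deposited, and 33 kept their side. Changes of sign also occurred with the replicate block to 0.019 for *Hk2*, 0.081 for *Tpi1*, 0.020 for *Pfkfb3* and -0.0068 for *Pgls*; with the protein-coding sum to -0.025 for *Pfkl* and -0.0042 for *Aldoa*; with median-ratio scaling to 0.0013 for *Tpi1* and 0.015 for *Khk*; and with a pseudocount of 0.1 to 0.016 for *Khk*. With single mice left out the ranges of the genes that changed sign were -0.057 to 0.16 for *Hk1*, -0.38 to 0.14 for *Hk2*, -0.0024 to 0.29 for *Gpi1*, -0.087 to 0.13 for *Pfkl*, -0.039 to 0.65 for *Pfkp*, -0.15 to 0.23 for *Aldoa*, -0.14 to 0.081 for *Tpi1*, -0.41 to 0.18 for *Pfkfb2*, -0.46 to 0.020 for *Pfkfb3*, -0.18 to 0.30 for *Gapdh*, -0.014 to 0.18 for *Pgk1*, -0.018 to 0.44 for *Ldha*, -0.034 to 0.59 for *Pdha1*, -0.25 to 0.80 for *Pdk1*, -0.54 to 0.22 for *Pdk2*, -1.09 to 0.52 for *Akr1b3*, -0.36 to 0.62 for *Khk*, -0.29 to 0.046 for *Ogt*, -0.0068 to 0.14 for *Pgls*, -0.083 to 0.22 for *Tkt* and -0.50 to 0.090 for *Gbe1*. Of the ratios, the ranges that crossed 0 were -0.16 to 0.73 for *Pfkp*/*Pfkl*, -0.64 to 0.43 for *Pfkfb3*/*Pfkfb2*, -0.047 to 0.32 for *Ldhb*/*Ldha*, -0.38 to 0.50 for *Pdk1*/*Pdha1*, -1.25 to 0.52 for *Akr1b3*/*Hk1*, -0.21 to 1.17 for *Sord*/*Akr1b3* and -0.13 to 0.20 for *Gfpt2*/*Gfpt1*. The causes were not tested.

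The replicate numbers of the genotypes do not pair animals in the labels, and with 2 *Ins2-AKITA* mice, whose deviations from their mean are opposite, the correlation with WT mice of the same number (0.05 and -0.03 across genes) cannot show a pairing. The replicate block called 0 genes higher and 5 lower and changed the ratios *Pfkp*/*Pfkl* to -0.029, *Pfkfb3*/*Pfkfb2* to 0.43 and *Gfpt2*/*Gfpt1* to -0.081. The counts of genes without overlap under other scalings (4 of the 40 after median-ratio scaling) and with mice left out (7 to 22) were added after the data had been seen. Counting error limits genes on few fragments, such as *Gfpt2* and *Hk2*.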
